A study of Mus musculus with 4 samples.

Results

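General capillary endothelial cells of the mouse lung were described here from 1 single-cell RNA-seq library, the day 0 library of a study of alveolar type I (AT1) cells. They were chosen by measured values: a barcode needed 500 or more genes and no more than 15% of its UMIs (unique molecular identifiers, each 1 captured transcript) from mitochondrial genes. Of these, members carried 2 or more UMIs of Gpihbp1, 1 or more of Cldn5 and Cdh5 together, none of Ednrb or Ptprc, and no more than 2 of Vwf. The rule selected 708 of the 7350 day 0 barcodes kept, which is 9.63% (95% Clopper-Pearson interval 8.97 to 10.3%), out of 33732 kept barcodes and 42105 barcodes in all 4 libraries. The same rule selected 0 barcodes at days 8, 13 and 20, which allows shares of up to 0.0380, 0.0322 and 0.0327% of the barcodes kept there. The rule is set in UMIs, and median UMIs per kept barcode were 17075, 9527 and 12791 there, against 2558.5 at day 0. Demanding no Ednrb or Ptprc UMI is stricter in deeper barcodes. The part of depth in these counts of 0 was not tested. The 6 genes of the rule set the membership, so their levels are a description only. The ratios of other genes between the classes below come from the same barcodes and follow in part from that choice, so they describe the class and carry no test.

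The mice carried Gramd2creERT2;mTmG, alleles in which a tamoxifen-inducible Cre driven by Gramd2, a gene of AT1 cells, switches a membrane tdTomato reporter to membrane EGFP. GFP-positive lung cells sorted by flow cytometry formed the day 0 library, and the labels call its cells alveolar epithelial. Sorted cells grown in Matrigel with MLg lung fibroblasts and the TGF-beta receptor inhibitor SB 431542, then enriched for EpCAM, gave the libraries of days 8, 13 and 20. Each day had 1 library with no replicate, the labels used here state neither age nor number of animals and give nuclear RNA as the molecule although single-cell suspensions were loaded, and no p-value is given: intervals are at 95% and cover counting error only. The day 0 library held 8902 barcodes and 31850454 UMIs, with a median of 2558.5 UMIs per kept barcode, while general capillary barcodes had a median of 1904 UMIs (range 637 to 28118) and 1195 genes. Pairs of libraries shared 25 to 41 barcode sequences, and 3 to 4 barcode sequences of the general capillary class also occurred in each culture library.

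General capillary cells line the alveolar capillaries together with aerocytes, a capillary type marked by Ednrb and Car4 that spreads over the gas-exchange surface. General capillary cells regulate vascular tone and serve as the progenitors of both types in capillary repair. Gpihbp1, their best-known marker, is the protein that carries lipoprotein lipase to the capillary lumen. The comparison named with the rule was against the other day 0 barcodes with at least 2 UMIs of Cldn5 and Cdh5 together, 847 barcodes called other endothelial here, so that general capillary barcodes made up 45.5% of 1555 endothelial barcodes. Among the 847 were 158 aerocyte barcodes (Ednrb at least 2) and 232 Vwf-high barcodes (Vwf at least 3), taken as larger vessels. The 847 also held 102 lymphatic barcodes (Mmrn1 and Prox1 together at least 2), and each of these classes had Ptprc at 0. A further 169 carried a Ptprc UMI, a gene of leukocytes, and 186 belonged to no such class, of which 90 had no Gpihbp1 UMI and 86 had 1. Across the 847, 215 had at least 2 Gpihbp1 UMIs and missed the rule on another gene.

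The markers named for the class were present in most of its barcodes, which the rule fixes for Gpihbp1 and in part for Cldn5. UMIs per barcode had a median of 5 for Gpihbp1 (range 2 to 27), 5 for Ptprb (0 to 29), 8 for Cldn5 (0 to 32), 6 for Hpgd (0 to 46) and 6 for Tmem100 (0 to 35). Cldn5 had a higher median, 17 UMIs, in aerocyte barcodes. Ptprb is a receptor phosphatase that restrains TIE2, Cldn5 a tight junction protein, Hpgd the enzyme that inactivates prostaglandins and Tmem100 a membrane protein downstream of BMP signalling. All 708 barcodes held a UMI of the 16 pan-endothelial markers that the rule left out, such as Pecam1 at 1295 CPM and Egfl7 at 2905 CPM (CPM, the UMIs of a gene per 1000000 UMIs summed over a class). Epcam, an epithelial surface gene, stood at 15.5 CPM in general capillary barcodes, against 429 CPM in AT1 barcodes (Ager at least 5 UMIs, no Cldn5, Cdh5 or Ptprc, 545 barcodes). A UMI of the 16 pan-endothelial markers also stood in 63.5% of AT1 barcodes. Their summed level was 19491 CPM in general capillary and 355 CPM in AT1 barcodes. The label alveolar epithelial thus went against the markers of these barcodes, which were endothelial.

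For shares of barcodes with a UMI, barcodes were thinned to 1000 UMIs each. This left 628 general capillary, 720 other endothelial and 2013 leukocyte barcodes and left out 80, 127 and 71 shallower ones. Ptprb had a UMI in 87.1% (84.2 to 89.6) of general capillary barcodes and 53.1% (49.3 to 56.8) of other endothelial barcodes. Hpgd had one in 90.1% (87.5 to 92.3) and 66.4% (62.8 to 69.8), and Tmem100 in 91.7% (89.3 to 93.8) and 53.3% (49.6 to 57.0). In leukocyte barcodes (Ptprc at least 2, no Cldn5, Cdh5 or Epcam), which should lack these genes, the shares were 0.695%, 4.52% and 0.795%. Before thinning the shares for Ptprb were 94.8% of general capillary, 64.2% of other endothelial and 1.97% of leukocyte barcodes, at median depths of 1904, 2145 and 3911.5 UMIs. Genes seen in a smaller part of the class were the stem cell factor receptor Kit, in 42.8% (38.9 to 46.8) of general capillary and 8.75% (6.79 to 11.1) of other endothelial barcodes, the semaphorin Sema3g, in 40.3% (36.4 to 44.2) and 9.03% (7.04 to 11.4), and the apelin receptor Aplnr, in 18.5% (15.5 to 21.7) and 5.83% (4.24 to 7.80).

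**Figure D1:**
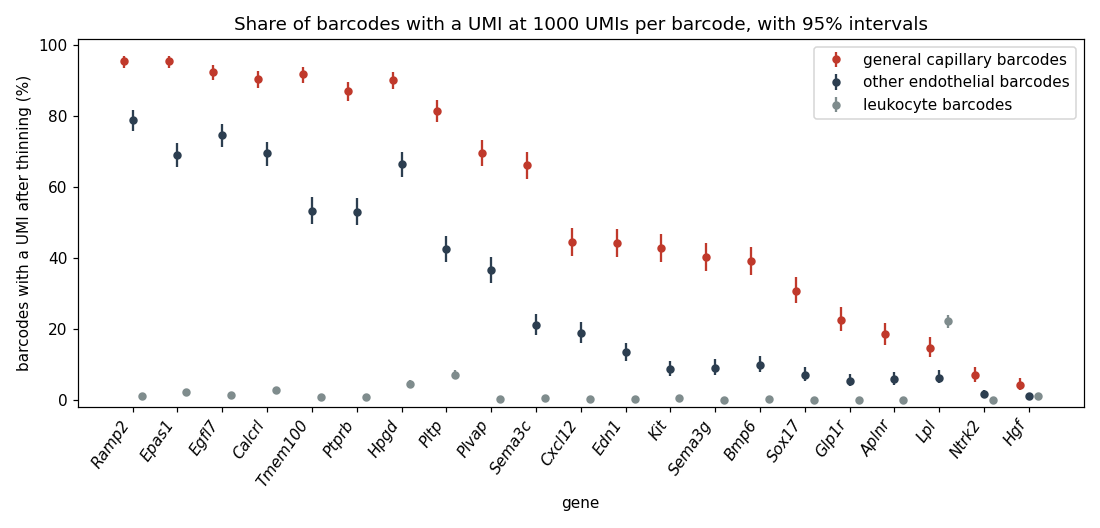
Percent of barcodes with at least 1 UMI of each gene after thinning to 1000 UMIs per barcode, in general capillary, other endothelial and leukocyte barcodes of day 0, with 95% Clopper-Pearson intervals. The general capillary points lie above the other endothelial points for all 21 genes, and Lpl is the one gene for which the general capillary share, 14.6%, is below that of leukocyte barcodes, 22.1%.

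Markers of other lung cells are given as the summed CPM of each list. Mesenchymal markers (16 genes) stood at 244 CPM in general capillary and 546 CPM in other endothelial barcodes, AT1 markers (14 genes) at 1729 and 3239 CPM, AT2 markers (12 genes) at 1304 and 1022 CPM and airway markers (10 genes) at 9238 and 16982 CPM, mostly Scgb1a1. Mesothelial markers stood at 27.7 and 59.5 CPM, with Wt1, Lrrn4 and Msln at 0 in general capillary barcodes. Against other endothelial barcodes with Ptprc at 0, which had 8821 CPM of airway and 564 CPM of AT2 markers, the direction of the airway sum turned. One Ptprc-carrying other endothelial barcode held 10299 Scgb1a1 UMIs, while the highest general capillary barcode held 993. Per barcode the AT2 direction was the reverse of the sums. A UMI of the list stood in 49.7% of general capillary and 58.7% of other endothelial barcodes, at medians of 0 and 317 CPM. The part of these RNAs in the ratios below was not tested.

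The promoters of 4 genes that lead the description are shown because their letters allow a search for 2 motifs of endothelial regulators, AGGAAG, a core of ETS factor sites, and AACAAT, a core of SOX factor sites, on both strands. The 250 bases before the start of each gene come from RefSeq on GRCm38.p6 and are the 2 named markers with an entry and, of the 15 largest ratios below with an entry, the 2 genes of highest CPM, Kit and Sema3g. Capitals mark AGGAAG or its reverse complement CTTCCT, and AACAAT or ATTGTT would be marked likewise. All lie on the plus strand, at chr8:56294302-56294551 for Hpgd, chr16:18776597-18776846 for Cldn5, chr5:75574737-75574986 for Kit and chr14:31217623-31217872 for Sema3g.
Hpgd: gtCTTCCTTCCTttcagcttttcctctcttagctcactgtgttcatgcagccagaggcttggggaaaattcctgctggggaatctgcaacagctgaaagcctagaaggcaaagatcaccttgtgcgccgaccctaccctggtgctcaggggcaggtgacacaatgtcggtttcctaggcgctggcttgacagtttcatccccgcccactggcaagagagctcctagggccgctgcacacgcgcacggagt
Cldn5: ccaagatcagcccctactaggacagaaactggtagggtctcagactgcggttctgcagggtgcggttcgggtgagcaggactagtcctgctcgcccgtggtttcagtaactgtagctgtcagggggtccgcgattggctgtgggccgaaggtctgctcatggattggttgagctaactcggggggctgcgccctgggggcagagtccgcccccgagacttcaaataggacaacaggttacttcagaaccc
Kit: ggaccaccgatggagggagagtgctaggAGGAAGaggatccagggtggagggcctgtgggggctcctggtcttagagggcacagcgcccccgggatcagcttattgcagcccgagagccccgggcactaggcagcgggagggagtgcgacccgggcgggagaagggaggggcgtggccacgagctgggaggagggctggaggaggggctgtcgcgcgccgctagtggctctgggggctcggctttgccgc
Sema3g: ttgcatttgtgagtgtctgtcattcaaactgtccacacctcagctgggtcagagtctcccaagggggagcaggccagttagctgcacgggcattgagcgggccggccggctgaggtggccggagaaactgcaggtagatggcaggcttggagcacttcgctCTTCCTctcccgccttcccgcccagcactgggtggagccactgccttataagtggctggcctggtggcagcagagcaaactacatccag

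AGGAAG or its complement stood in the first RefSeq entry of 4 of the 13 genes found among 20 looked up (the 5 named markers and the 15 largest ratios), which is 30.8%, against 29.5% of all 32851 promoter windows of this length. AACAAT or its complement stood in 0 of the 13, against 9.42% of all windows. Hpgd held 2 overlapping matches, Kit 1 and Sema3g 1, and Cldn5 held none. A match describes these letters and is no evidence of binding.

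Kit, Sox17 and Glp1r were among the 15 genes with the largest ratios of general capillary over other endothelial barcodes. Kit reached 575 CPM in general capillary barcodes and 99.0 CPM in other endothelial barcodes, a log2 ratio of 2.54 (interval 2.33 to 2.75). Sox17, a transcription factor of arterial specification, stood at 412 and 77.8 CPM, a log2 ratio of 2.41 (interval 2.17 to 2.65). Glp1r, the receptor of glucagon-like peptide 1, stood at 227 and 45.3 CPM, a log2 ratio of 2.32 (interval 2.01 to 2.65). All 3 ratios were above 4-fold in this 1 library, with intervals that leave out 2-fold.

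Other genes among the 15 follow, with log2 ratios and their intervals in parentheses here and below. Ntrk2, the receptor of brain-derived neurotrophic factor, stood at 72.9 CPM in general capillary and 10.4 CPM in other endothelial barcodes (2.81, interval 2.17 to 3.50), and Gna14, a G protein alpha subunit of the Gq class, at 52.0 and 6.65 CPM (2.96, interval 2.18 to 3.84). Sema3g had a log2 ratio of 2.12 (interval 1.92 to 2.33) and Aplnr of 2.01 (interval 1.70 to 2.33). The bone morphogenetic protein Bmp6 stood at 419.7 and 105 CPM. The remaining genes among the 15 largest ratios were Pde5a, Rhpn2, Mcf2l, Dnah8, Glb1l2, Hbegf and Rapgef4, with log2 ratios of up to 2.31. In all 15, no single barcode gave more than 10.7% of the UMIs of the general capillary class.

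To count as higher or lower, a gene needed a difference of 2-fold or more, 20 CPM or more in the larger class and an interval without 1; a class with under 3 UMIs was set to 3. By that count 253 of 7557 genes measured were higher in general capillary than in other endothelial barcodes (3.35%) and 698 were lower (9.24%), and the median log2 ratio of all genes was 0.09. The lower genes were led by genes of leukocytes and of the other endothelial types. S100a9, S100a8, Camp and Ngp, granulocyte genes, stood at 8.10, 8.77, 0 and 0 CPM in general capillary barcodes and at 2122, 1298, 415 and 261 CPM in other endothelial barcodes, where 1 barcode held 43.1, 49.97, 99.9 and 100% of the UMIs. Summed over the 12 myeloid markers that the rule left out, the level was 339 CPM in general capillary and 6988 CPM in other endothelial barcodes, and all 12 were lower. The rule asked for no Ptprc UMI in general capillary barcodes alone.

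Set against the 678 other endothelial barcodes with Ptprc at 0, which removes that difference, 183 of 7338 genes were higher (2.49%) and 442 lower (6.02%), at a median log2 ratio of 0.02. Kit had a log2 ratio of 2.56 there, Glp1r of 2.22, Sox17 of 2.21 and Sema3g of 1.79. Lpl, which encodes lipoprotein lipase itself, was counted as higher there, at 207 CPM in general capillary barcodes against 50.7 CPM in other endothelial barcodes with Ptprc at 0, a log2 ratio of 2.03 (interval 1.67 to 2.41). With the Ptprc-carrying barcodes included, other endothelial barcodes had 188 CPM and the ratio was under 2-fold. Leukocyte barcodes had 651 CPM and AT1 barcodes 26.3 CPM. Epas1, the hypoxia-inducible factor HIF-2 alpha, and Plvap, the protein of caveolar and fenestral diaphragms, had log2 ratios of 1.19 and 1.36 against all other endothelial barcodes and of 0.80 and 0.96, under 2-fold, against those with Ptprc at 0.

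**Figure D2:**
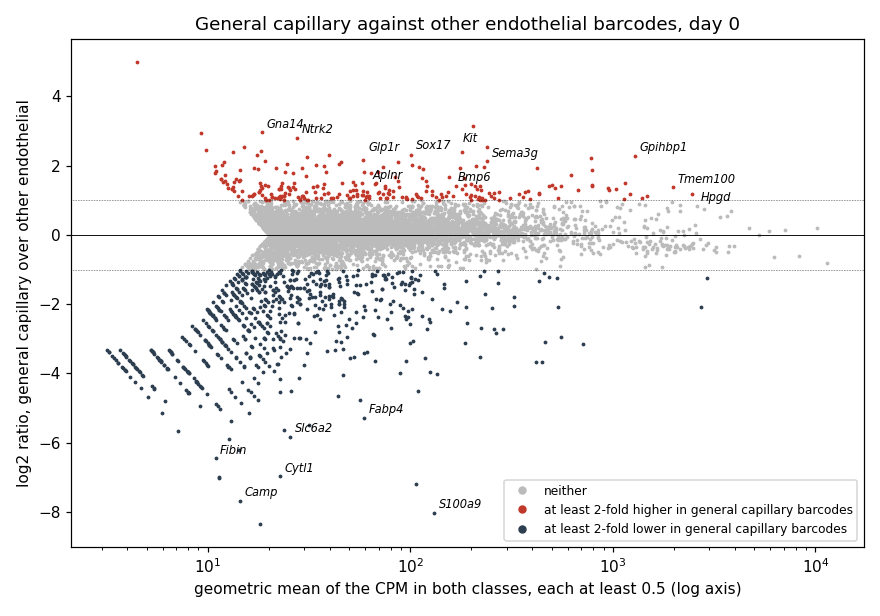
Each point is 1 of 7557 genes, with the geometric mean of its CPM in both classes on a log axis and the log2 ratio of general capillary over other endothelial barcodes on the vertical axis, where dotted lines mark 2-fold. Red points are the 253 higher genes, dark points the 698 lower genes. Kit, Sox17, Glp1r and Sema3g stand out above, and Fabp4, Slc6a2, Cytl1, Fibin, S100a9 and Camp below.

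Aerocytes were the capillary type to set beside them. Ptprb, Plvap, Cxcl12 and Cd93 were higher in general capillary than in aerocyte barcodes, while Hpgd and Tmem100 were within 2-fold. Ptprb stood at 2714 CPM in general capillary and 119 CPM in aerocyte barcodes (4.51, interval 4.10 to 4.96), and Plvap at 1519.5 and 53.1 CPM (4.84, interval 4.22 to 5.53). The chemokine Cxcl12 stood at 822 and 22.8 CPM (5.17, interval 4.24 to 6.31), and the lectin-like receptor Cd93 at 1646 and 86.0 CPM (4.26, interval 3.77 to 4.79). Hpgd, at 3465 and 2748 CPM, and Tmem100, at 3201 and 2376 CPM, had ratios under 2-fold (0.33, interval 0.24 to 0.43 and 0.43, interval 0.33 to 0.53).

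In all, 781 of 7407 genes were higher in general capillary than in aerocyte barcodes (10.5%) and 619 lower (8.36%), at a median log2 ratio of 0.04. Of the general capillary list, 11 of 14 genes measured that the rule left out were higher and 0 lower, with a median log2 ratio of 3.29. Of the aerocyte list, 0 of 15 were higher and 15 lower, with a median of -4.38: the apelin gene Apln stood at 2.70 CPM in general capillary and 506 CPM in aerocyte barcodes (-7.55, interval -9.44 to -6.17), the carbonic anhydrase Car4 at 101 and 3358 CPM (-5.05, interval -5.31 to -4.81) and the secreted Igfbp7 at 125 and 8107 CPM (-6.02, interval -6.24 to -5.81). Apelin and its receptor thus lay on opposite sides, with Aplnr at 204 CPM in general capillary and 5.06 CPM in aerocyte barcodes, where it had 2 UMIs. The same held for Kit and its ligand: Kit stood at 575 and 15.2 CPM (5.24, interval 4.11 to 6.69), and Kitl, stem cell factor, at 299 and 2014 CPM (-2.75, interval -2.92 to -2.58). The VEGF receptor Kdr was lower in general capillary barcodes, at 344 and 3267 CPM (-3.25, interval -3.40 to -3.10), and Vegfa higher, at 589.7 and 40.5 CPM (3.86, interval 3.16 to 4.68), beside 4043 CPM in AT1 barcodes.

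Of the arterial list 10 of 11 genes measured were higher than in aerocyte barcodes and 0 lower, with a median log2 ratio of 2.38. This was not particular to arterial genes: 4 of 6 venous genes (median 1.80) and 7 of 10 AT2 genes were higher and 0 of either list lower. The AT2 values rest in part on single barcodes: the highest general capillary barcode held 67.6% of the Slc34a2, 45.3% of the Cxcl15 and 42.9% of the Sftpc UMIs. Before thinning, a UMI of the AT2 list stood in 49.7% of general capillary and 64.6% of aerocyte barcodes. The connexin Gja4 stood at 324 CPM in general capillary barcodes and 2.53 CPM in aerocyte barcodes, where it had 1 UMI, and the Notch target Hey1 at 225 and 5.06 CPM (4.89, interval 3.61 to 8.52). Sox17 stood at 412 and 15.2 CPM (4.76, interval 3.63 to 6.22), the natriuretic peptide clearance receptor Npr3 at 343 and 7.59 CPM (5.50, interval 3.94 to 7.78). Among the lower genes with the largest ratios were Fibin, Rprml, Chst1, Tmeff2 and Slitrk6, with log2 ratios of -6.32 to -8.83. Aerocyte barcodes had a median of 2375 UMIs.

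**Figure D3:**
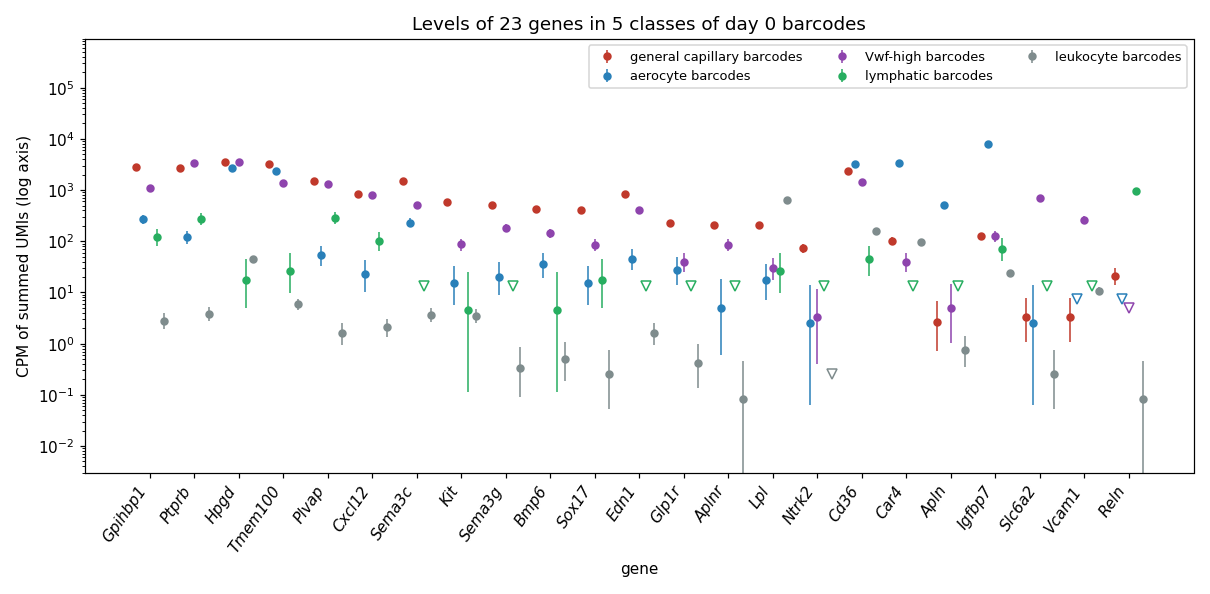
CPM of summed UMIs (log axis) of 23 genes in general capillary, aerocyte, Vwf-high, lymphatic and leukocyte barcodes of day 0, with 95% Poisson intervals. Open triangles mark classes with 0 UMIs, drawn at the level of 3 UMIs. Ptprb, Plvap and Cxcl12 are near their general capillary level in Vwf-high barcodes and low in aerocyte barcodes, whereas Hpgd and Tmem100 are low in lymphatic and leukocyte barcodes.

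Vwf-high barcodes, taken as larger vessels, were closer to general capillary barcodes in several of the same markers. They had a median of 1 Gpihbp1 UMI per barcode (range 0 to 37), and 107 kept barcodes missed the general capillary rule on Vwf alone. How many Vwf-high barcodes were capillary cells was not tested. Ptprb, at 2714 CPM in general capillary and 3348 CPM in Vwf-high barcodes, Plvap, at 1519.5 and 1334 CPM, and Cxcl12, at 822 and 811 CPM, all had ratios under 2-fold (-0.30, interval -0.38 to -0.23, 0.19, interval 0.07 to 0.31 and 0.02, interval -0.13 to 0.17). Higher in general capillary barcodes were 385 of 7289 genes (5.28%) and lower were 397 (5.45%), at a median log2 ratio of 0.07. Of the general capillary list 7 of 14 were higher and 0 lower (median 1.09), among them Lpl at 207 and 29.4 CPM (2.82, interval 2.13 to 3.59), Kit at 575 and 86.6 CPM (2.73, interval 2.33 to 3.16) and Tmem100 at 3201 and 1396 CPM (1.20).

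The genes lower than in Vwf-high barcodes included those of veins and of the vessel wall. Of the venous list 10 of 11 were lower and 0 higher, with a median log2 ratio of -3.94. The noradrenaline transporter Slc6a2 stood at 3.37 CPM in general capillary and 691 CPM in Vwf-high barcodes (-7.68, interval -9.31 to -6.45), and the leukocyte adhesion molecule Vcam1 at 3.37 and 265 CPM (-6.29, interval -7.94 to -5.04). Fabp4, a fatty acid-binding protein of endothelium and fat, stood at 9.45 and 1002 CPM (-6.73, interval -7.61 to -5.97). The arterial list divided: Sox17 (2.28, interval 1.87 to 2.72) and Sema3g (1.47, interval 1.18 to 1.77) were higher, whereas 9 of 16 genes were lower, including the fibulins Fbln2 (-5.12, interval -6.28 to -4.15) and Fbln5 (-4.33, interval -5.08 to -3.66), the calcification inhibitor Mgp (-4.15, interval -4.44 to -3.87) and the connexin Gja5 (-2.56, interval -3.14 to -2.01). Other genes among the largest lower ratios were Cytl1, Cpe, Ch25h, Car8 and Bst1, with log2 ratios of -5.77 to -8.82, and among the higher ones Ntrk2 (3.89, interval 2.59 to 7.54), Pard6g, Pde5a and Ackr2. Chil3 and Sftpc also had large ratios, but 1 general capillary barcode held 61.9% of the Chil3 UMIs and 1 held 42.9% of the Sftpc UMIs. The 12 AT2 markers summed to 1304 CPM in general capillary and 284 CPM in Vwf-high barcodes, and 8 of 9 measured were higher. The part of free RNA or of a second cell under 1 barcode in these AT2 and Chil3 values was not tested.

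Against lymphatic barcodes, 927 of 7713 genes were higher in general capillary barcodes (12%) and 872 lower (11.3%), at a median log2 ratio of 0.08. Hpgd stood at 3465 CPM in general capillary and 17.9 CPM in lymphatic barcodes (7.60, interval 6.24 to 9.47), Tmem100 at 3201 and 26.8 CPM (6.90, interval 5.77 to 8.34) and the phospholipid transfer protein Pltp at 1938 and 8.95 CPM (7.17, interval 5.90 to 10.81). The semaphorin Sema3c had 1517 CPM in general capillary and 0 UMIs in lymphatic barcodes, a log2 ratio of at least 6.82 against 3 UMIs over the class. All 10 genes measured of the lymphatic list were lower (median -5.33), among them the reelin gene Reln at 20.9 and 953 CPM (-5.51, interval -6.10 to -4.96). Others among the largest ratios were Ly6a, Tspan7, Scn7a and Ly6c1 on the higher side, with log2 ratios of 6.21 to 7.22, and Apba2, Ptx3, Lrrn4cl, Stab2, Kcnn3, Rbp7, Nts and Hoxd9 on the lower side, with -5.95 to -6.54.

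A small number of selected barcodes carried lymphatic genes. Of the 708 barcodes, 13 had at least 2 UMIs of Mmrn1 and Prox1 together, and these 13 held 98.6% of the Ccl21a UMIs of the class. Ccl21a, the chemokine of lymphatic vessels, stood at 58752 CPM in the 13 and 18.6 CPM in the other 695. Hpgd stood at 183 CPM in the 13 and 3539 CPM in the other 695, and Reln at 944 and 0 CPM. The 102 lymphatic barcodes had 54800.5 CPM of Ccl21a and 17.9 CPM of Hpgd. For Tmem100 and Kit the 13 lay between both. Tmem100 stood at 335 CPM in the 13, 3266 CPM in the other 695 and 26.8 CPM in lymphatic barcodes, and Kit at 122, 585 and 4.47 CPM. Ptprb stood at 274, 2769 and 273 CPM in the same order, so the 13 had its lymphatic level. Flt4, at 1431, 115 and 1320 CPM, and Lyve1, at 2223, 226 and 1132 CPM, were highest in the 13. Ccl21a was the gene of the largest ratio over aerocyte barcodes (6.22) and over Vwf-high barcodes (6.85), and both values rest on those 13 barcodes. Without them the genes higher and lower numbered 269 and 724 against other endothelial barcodes, beside 253 and 698 with them. The number of genes measured without them is not given here, so no share is stated.

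Genes higher in general capillary barcodes than in each of the aerocyte, Vwf-high and lymphatic classes numbered 79 of 6810 measured in all (1.16%), and 14 were lower than in each (0.206%). The 79 include Gpihbp1 and the 14 include Ednrb, whose direction the rule set. Some of the 79, such as Igha, Dcn and Sftpc, had 42.9% or more of their UMIs in 1 barcode. The others included receptors (Kit, Glp1r, Ntrk2 and Aplnr), secreted factors (Bmp6, Sema3c, Sema3g, Edn1, Hgf and Hbegf), Lpl, Sox17 and the matrix glycoprotein Sparcl1. Hepatocyte growth factor, Hgf, stood at 42.5 CPM in general capillary barcodes, against 2.53 CPM in aerocyte, 4.90 CPM in Vwf-high and 0 CPM in lymphatic barcodes. Sparcl1 stood at 458 CPM in general capillary barcodes, against 22.8, 132 and 31.3 CPM in the same order. Among the 14 lower genes, Timp3, an inhibitor of metalloproteinases, stood at 260.4 CPM in general capillary barcodes, against 1027 CPM in aerocyte, 1692 CPM in Vwf-high and 3310.4 CPM in lymphatic barcodes, and the small heat shock protein Hspb1 at 86.4 CPM, against 1048, 265 and 318 CPM in the same order.

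Signalling groups were counted as lists, each beside the share of all genes called given above. In the list of BMP9, ALK1 and endoglin signalling, Bmp6, Tmem100 and Smad6 were higher than in other endothelial barcodes and 0 of 14 lower (median log2 ratio 0.67, against 0.09 for all genes). Against those with Ptprc at 0 Bmp6 and Tmem100 were higher (median 0.34, against 0.02). Of all genes 9.24 and 6.02% were lower in these comparisons, so the 0 lower says nothing about the list. The receptors Acvrl1, at 1416 CPM in general capillary and 1112 CPM in other endothelial barcodes with Ptprc at 0, and Bmpr2, at 1951 and 1426 CPM, had ratios under 2-fold (0.35, interval 0.25 to 0.44 and 0.45, interval 0.37 to 0.53). Against lymphatic barcodes 11 of 14 genes of the list were higher and 2 lower. In the Notch list Hey1 and the receptor Notch4 were higher against barcodes with Ptprc at 0 and 0 of 11 lower (median 0.19, against 0.02). Beside 6.02% lower of all genes, that 0 says nothing about the list either. In the list of VEGF and angiopoietin signalling the receptor Tek, TIE2, was higher, at 907 and 433 CPM (1.07, interval 0.93 to 1.21), and 5 of 16 genes were lower, including Kdr (-1.76, interval -1.90 to -1.62) and the lymphatic co-receptor Nrp2 (-2.67, interval -3.15 to -2.22).

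Of 12 vasoactive genes measured against other endothelial barcodes with Ptprc at 0, 1 was higher and 4 were lower. Of 6 lipid uptake genes 1 was higher and 2 were lower. The shares of all genes in that comparison were 2.49% higher and 6.02% lower. Edn1, the vasoconstrictor endothelin 1, was higher in general capillary barcodes, at 827 CPM against 275 CPM in other endothelial barcodes with Ptprc at 0 (1.59, interval 1.43 to 1.75). Genes of prostacyclin and nitric oxide synthesis were among the 4 lower: Ptgis stood at 15.5 and 112 CPM (-2.85, interval -3.55 to -2.22), Ptgs1 at 39.1 and 103 CPM (-1.40, interval -1.86 to -0.96) and Nos3 at 10.8 and 34.7 CPM (-1.68, interval -2.59 to -0.85). Against Vwf-high barcodes Ptgs2, Ptgis, Nos3 and Ptgs1 were also lower, and Gucy1a1, Dysf, Nostrin and Edn1 higher, of 12 measured. Against aerocyte barcodes the picture differed. Ptgs1 was counted as higher, at 39.1 CPM in general capillary and 5.06 CPM in aerocyte barcodes, where it had 2 UMIs. Ptgis was not counted as lower there and Nos3 was under the filter on low values. Slco2a1, a prostaglandin transporter, at 1215 and 806 CPM, and Ace, angiotensin-converting enzyme, at 1294 and 812 CPM, had ratios under 2-fold. In the lipid uptake list Lpl was the higher gene and Fabp4 and Abca1 the lower ones, while the fatty acid translocase Cd36 had 2406 CPM in general capillary, 3213 CPM in aerocyte and 1465 CPM in Vwf-high barcodes.

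Matrix, immune and stress lists completed the description. Of 14 basement membrane and matrix genes, Sparcl1, Col15a1, Lama5 and Sparc were higher than in other endothelial barcodes with Ptprc at 0 and Lama4, Fn1, Hspg2 and Lamc1 lower (median -0.30), beside 2.49% higher and 6.02% lower of all genes. The MHC class I genes H2-Q7 (1.19) and H2-Q6 (1.17) were higher and 0 of 12 lower, beside the same shares of all genes, so the 0 says nothing about the list. These are members of a family of similar genes, so reads may be divided among them and the split is uncertain. Of 12 leukocyte adhesion genes Vcam1, Selp, Icam1 and Cd34 were lower and 0 higher, beside 6.02% lower and 2.49% higher of all genes. Immediate early genes, which rise with tissue dissociation, were lower for 7 of 15 against Vwf-high barcodes (median -0.97), with Fos at 167 and 539 CPM (-1.69, interval -1.93 to -1.45), and for 0 of 14 against aerocyte barcodes (median 0.23).

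**Figure D4:**
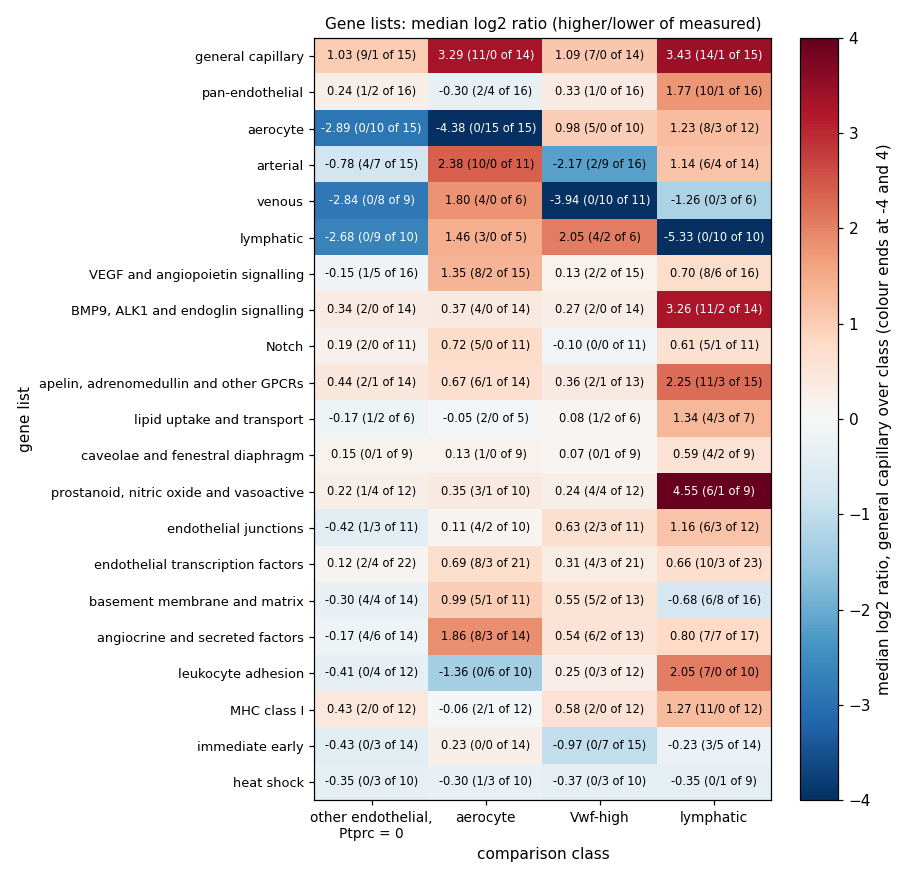
Median log2 ratio of general capillary barcodes over 4 comparison classes (columns) for 21 gene lists (rows), without the genes that set the classes; each cell gives the median, then the genes higher and lower of those measured. The aerocyte list has its lowest median against aerocyte barcodes (-4.38), the venous list against Vwf-high barcodes (-3.94) and the lymphatic list against lymphatic barcodes (-5.33), as the choice of classes fixes.

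The reporter transcripts did not follow the sort in these barcodes. EGFP stood at 142 CPM (123 to 162) in general capillary barcodes, against 114 CPM (101 to 128) in other endothelial, 51.1 CPM in leukocyte and 1584 CPM in AT1 barcodes. tdTomato stood at 682 CPM (641 to 726) in general capillary barcodes, against 386, 232 and 121 CPM in the same order. Counted per barcode, general capillary and leukocyte barcodes were alike, at median depths of 1904 and 3911.5 UMIs. EGFP had a mean of 0.297 and 0.292 UMIs per barcode and tdTomato of 1.43 and 1.33. Of the 325 general capillary barcodes with at least 2 reporter UMIs, 6 had at least 80% EGFP (1.85%, interval 0.680 to 3.97%) and 224 at least 80% tdTomato (68.9%), whereas 334 of 414 AT1 barcodes (80.7%) were dominated by EGFP. The EGFP-dominant share was 0.319% with the highest doublet scores removed and 5.23% at a threshold of 60%. One general capillary barcode held 26 EGFP UMIs. How these barcodes came to be in a library sorted for GFP was not tested.

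**Figure D5:**
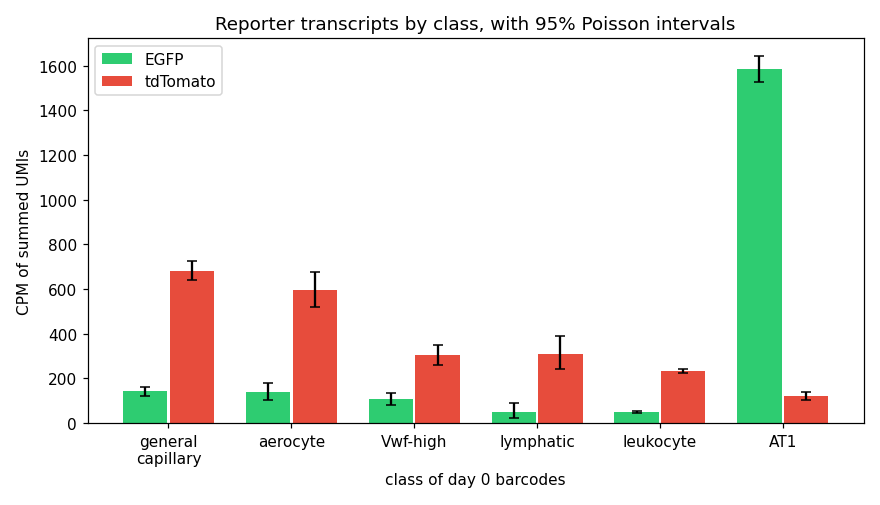
Summed CPM of the EGFP and tdTomato transcripts in 6 classes of day 0 barcodes, with 95% Poisson intervals. General capillary barcodes have 142 CPM of EGFP and 682 CPM of tdTomato, and AT1 barcodes are the class in which EGFP exceeds tdTomato.

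Variation among the barcodes of the class was measured after thinning. The median Fano factor (variance over mean, 1 for pure counting) was 1.03 over 3613 genes seen in at least 5% of the 628 barcodes, and 27 genes exceeded 2, genes left out of the ranks included. For a gene with a mean well below 1 UMI a given relative spread moves the factor less far from 1. The median thus does not show that most genes vary little. The genes named next are those ranked. The highest values belonged to genes of other lung cells that stood in few barcodes: Sftpc of AT2 cells at 40.3 with a UMI in 19.1% of barcodes, Ager of AT1 cells at 7.04 with 6.53%, and Lyz2 of myeloid cells at 3.78 with 11.5%. Scgb1a1, a club cell gene at a Fano factor of 3.52, had a UMI in 99.4% of general capillary and 89.6% of leukocyte barcodes. The part of free RNA in it was not tested. Endothelial genes with values above 2 included Cxcl12 at 2.49, Ly6a at 2.37, Ramp2 at 2.30, Sema3c at 2.20 and Hpgd at 2.09. Timp3, at 2.46, had a UMI in 13.4% of general capillary, 51.5% of other endothelial and 83.1% of AT1 barcodes. Lyve1, at 2.18, stood at 2223 CPM in the 13 barcodes with lymphatic genes and 226 CPM in the other 695. Others among the 15 highest were Apoe, Cbr2, Cd74, Actb and Igfbp7. The cycling list summed to 173 CPM in general capillary, 317 CPM in other endothelial and 169 CPM in other endothelial barcodes with Ptprc at 0.

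Barcodes just inside and just outside the thresholds had the following levels, given as a description. The 115 barcodes with exactly 2 Gpihbp1 UMIs (16.2% of the class) had 2453 CPM of Ptprb and 2708 CPM of Hpgd, and the 116 barcodes that had 1 Gpihbp1 UMI and met the rest of the rule had 1886 and 1433 CPM, with 13959 CPM of Ccl21a against 4607 CPM inside. The 132 barcodes inside with 1 or 2 Vwf UMIs had 2850.2 CPM of Ptprb and 492 CPM of Kit, and the 27 outside for Vwf alone, with 3 or 4 UMIs, had 3186 and 437 CPM. The 22 barcodes outside for at least 2 Ednrb UMIs had 489.8 CPM of Ptprb and 3021 CPM of Car4, the pattern of aerocytes, while the 11 with 1 Ednrb UMI had 2123 CPM of Ptprb and 34.8 CPM of Car4. The 25 barcodes outside for 1 Ptprc UMI had 2443 CPM of Ptprb and 741 CPM of Lyz2.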

How the data were processed

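Droplet single-cell RNA-seq (Chromium 3' kit v3.1 chemistry per the labels' protocols) gave 1 matrix per day. The deposited values are UMI counts per gene and barcode, made by the authors with Cell Ranger 7.0.1 on mm10, per the submitters' processing notes. The matrices held 22547 features, and 8902 barcodes with 31850454 UMIs at day 0. Of those, 338 exceeded 15% mitochondrial UMIs and 1415 had fewer than 500 genes.

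Counts were summed over the barcodes of a class and scaled to CPM, with exact Poisson intervals. Ratios have exact conditional Poisson intervals and shares Clopper-Pearson intervals, all at 95% and covering counting error only. Cells are not replicates, and each day has 1 library, so no test between samples was made. The calculation was tested on simulated data. Comparison classes were exclusive of the general capillary class; no cell types are annotated in the files used here. Doublets were not removed: Scrublet's automatic threshold called 0 of 7350 barcodes and so did not work, and an alternative removed the 523 highest scores (27 general capillary). Other alternatives changed the cell filter, the Gpihbp1 threshold, scaling, depth and the low filter.

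Genes named are the 15 largest ratios in each direction against other endothelial barcodes and the 8 largest per class, among those counted with at least 50 CPM, the 15 highest Fano factors, and members of gene lists. Immunoglobulin, mitochondrial, ribosomal and predicted genes were left out of the ranks, and 1 ranked gene is not reported here. Lpl and other genes of the text outside these ranks come from the lists or were chosen after their values were seen. The members and lists were chosen with earlier results of these data known. Python 3.11.15, NumPy 2.4.6, SciPy 1.17.1, pandas 2.3.3, Scanpy 1.11.5 and matplotlib 3.10.9 were used.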

Additional observations from a re-analysis of the deposited data

Results flagged for a closer look

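Endothelial barcodes were also looked for in the culture libraries, which the comparisons above do not use. At least 2 UMIs of Cldn5 and Cdh5 together stood in 2 barcodes at day 8, 6 at day 13 and 14 at day 20. The counts of days 13 and 20 exceed 3, the most barcodes that a count of 0 would allow for, and that of day 8 does not. That limit is for a count of 0 and does not judge counts that were observed, so no conclusion is drawn from it. Of barcodes with at least 2 Gpihbp1 UMIs and a Cldn5 or Cdh5 UMI there were 1, 3 and 3 at days 8, 13 and 20, and all carried 1 to 5 Ednrb UMIs, which kept them out of the general capillary class. Median depths of these barcodes were 29410, 14336 and 15978 UMIs in that order. Ednrb stood at 34.0, 142 and 186 CPM, against 3426 CPM in aerocyte barcodes of day 0. Gpihbp1 stood at 102, 1461 and 3649 CPM, Kit at 136, 183 and 206 CPM and Apln at 34.0, 609 and 680 CPM. The barcodes held 0 UMIs of Hpgd, of Car4 and of EGFP at each day. Their type was not tested.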

How the results depend on the processing

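No paired analysis was possible because each day has 1 library and the classes compared come from the same library. With at least 1000 genes and at most 10% mitochondrial UMIs, 460 barcodes met the rule. The share of general capillary barcodes was 8.36% with no filter on barcodes, 11.2% with at least 1 Gpihbp1 UMI and 8.07% with at least 3. With no filter on low values, 395 genes were higher and 1363 lower than in other endothelial barcodes. With the 20 CPM filter kept, 442 were lower than in other endothelial barcodes with Ptprc at 0. Thinned to 1000 UMIs, 491 genes were higher than in aerocyte and 600 higher than in lymphatic barcodes, with fewer UMIs behind each gene. The genes measured change with the low filter and with depth, so counts under these alternatives do not compare directly with those above. At 60% EGFP, 5.23% of general capillary barcodes with reporter UMIs were EGFP-dominant, and with the highest Scrublet scores removed 0.319% were, at 112 CPM of EGFP. Thinned to 1500 UMIs, Ptprb had a UMI in 93.7% and Tmem100 in 94.5% of general capillary barcodes. Camp and Ngp reversed: both had 0 UMIs in general capillary barcodes and nearly all their UMIs in 1 other barcode, and their log2 ratios became 0.46 with the highest Scrublet scores removed and 0.018 against barcodes with Ptprc at 0, values that only reflect the 3 UMIs set for both sides. Of 1099 ratios of named genes under the alternatives, 962 stayed within their interval, 133 moved outside it and these 4 reversed. Depth limits the rarer genes: a median of 1904 UMIs per barcode leaves a gene of low level unseen in many barcodes, and 1 library gives no spread between animals.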
